A study of Drosophila melanogaster with 16 samples.

Results

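On the large autosomal arms of Drosophila melanogaster (2L, 2R, 3L and 3R), 231 sites had a peak of the zinc-finger protein WOC and none of ROW, HP1c or HP1b. These WOC-only regions were chosen by the peak positions of the factor lists alone: the peaks of the ROW, WOC, HP1c and HP1b lists that overlapped by at least 1 bp were merged into regions. Regions on X, chromosome 4, the mitochondrial genome and the heterochromatin contigs were dropped, and those made of WOC peaks alone were kept, whether or not they carried H3K4me3. They were 231 of 5880 autosomal regions, and of 7897 regions over all contigs. Every one of the 231 held a single WOC peak. The other 127 WOC-only regions of the genome (74 on X, 39 on heterochromatin contigs and 14 on chromosome 4) were left out by the rule.

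All chromatin came from fly heads of one control genotype, labelled Actin-gal4/+ (W1118) control, so that every library carries the driver and no group is a mutant. Actin-gal4 is a driver of broad expression. Immunoprecipitation was carried out with antibodies against WOC (3 libraries), ROW (3), HP1c (3), HP1b (2) and H3K4me3 (3), and with IgG (2) as the non-specific control, 16 libraries in all. The labels give neither age nor sex of the flies. Each antibody has 1 peak list in which its replicates were combined. The spread between replicates and the depth of each library are therefore unknown, and intervals and p-values below cover counting error over sites, which are not independent replicates of a condition. In whole heads, a site bound in few cells and a site bound weakly in many cannot be told apart, and absence of a peak shows that none was called.

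WOC (without children) is a nuclear protein with MYM-type zinc fingers that is known to travel with ROW (relative of WOC), another zinc-finger protein, and with HP1c, a member of the heterochromatin protein 1 family found mostly in euchromatin. HP1b is a related family member found in both euchromatin and heterochromatin. WOC is also known as a protein that protects chromosome ends from fusion. H3K4me3, trimethylation of lysine on the tail of histone H3, marks nucleosomes just downstream of active promoters, and its peaks are commonly read as promoters in use. Sites of WOC without its usual partners are the subject here. Genes and DNA sequence at these sites were not analysed here, because no genome or annotation of the files' build, dm3, was at hand; all coordinates are dm3.

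WOC peaks without a partner were a small and narrow subset. They made up 6.42% of the 3600 autosomal WOC peaks (95% Wilson interval 5.66 to 7.26). Their median width was 286 bp (quartiles 258.5 and 326 bp, range 240 to 884 bp), against 436 bp for the other 3369 autosomal WOC peaks (334 and 586 bp, range 240 to 2628 bp). The narrowest WOC peak of the whole list also has 240 bp. The ranges overlapped, but the WOC-only upper quartile lay below the lower quartile of the other peaks. Among the other combinations, WOC peaks shared with ROW had a median width of 404 bp, and those shared with ROW, HP1c and HP1b 552 bp. WOC peaks that lacked ROW but met an HP1 protein were nearer to the WOC-only width, at 298 bp with HP1b, 302 bp with HP1c and 349 bp with both. A wide peak meets another peak more easily, so width is in part set by the rule, and these widths are given without a test.

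The share of WOC peaks that stood alone dropped along the width of the list. Of the 360 narrowest autosomal WOC peaks (240 to 270 bp), 85 were WOC-only, or 23.6%. The next deciles of the list held 17.5% (270 to 303 bp), 10% (303 to 342 bp), 5.28% (342 to 379 bp) and 4.17% (380 to 424 bp). In the upper 4 deciles of the list, from 477 bp, 4 of 1440 peaks were WOC-only. Only 13 of the 231 reached the median width of all autosomal WOC peaks, 424 bp.

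**Figure D1:**
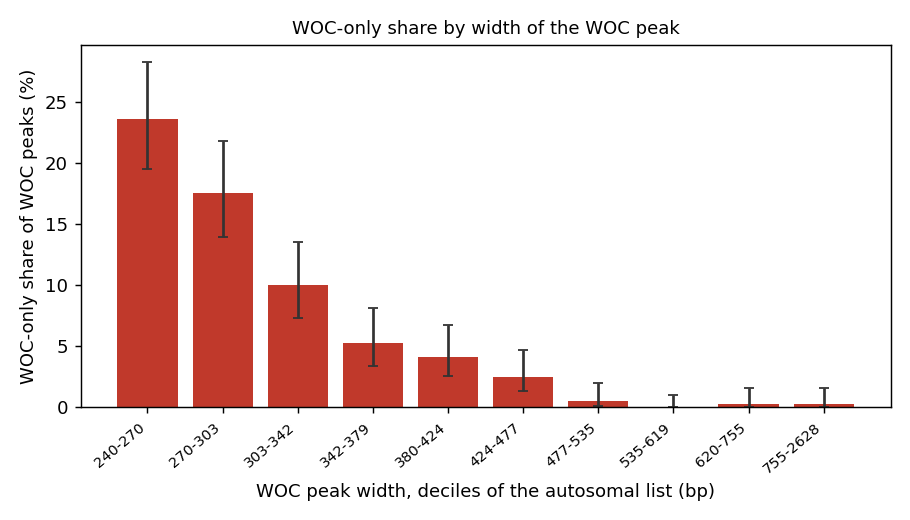
Share of autosomal WOC peaks that are WOC-only (y axis, percent) in deciles of the WOC list ordered by peak width (x axis, bp), 360 peaks a bar; error bars are 95% Wilson intervals. The share is 23.6% in the narrowest decile and 0.278% in the widest.

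The widest WOC-only regions were exceptions to this. The widest lay on 2R at 937810 to 938693 (884 bp), in the proximal part of the arm and 39330 bp from the nearest H3K4me3 peak, with an HP1c peak 519 bp and an HP1b peak 534 bp away. The next was on 3L at 13479332 to 13479993 (662 bp); it met 2 H3K4me3 peaks, the stronger with a fold enrichment of 4.28, and its nearest ROW peak was 5970 bp away. The others among the first 5 were all on 3L: 11727906 to 11728400 (495 bp, unmarked), 3813920 to 3814399 (480 bp, marked, fold enrichment 4.49) and 7855735 to 7856210 (476 bp, unmarked, 634 bp from a ROW peak). Marked and unmarked regions, and sites near and far from other factors, stood among them.

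The boundary of the rule was sparsely filled. The WOC-only regions closest to another factor lay on 3L at 11967510 to 11967750, 57 bp from an HP1c peak, and on 2R at 15294853 to 15295183, 77 bp from an HP1b peak. Then came 3L at 21764038 to 21764379 (94 bp from HP1c), 3L at 1223087 to 1223335 (110 bp from HP1b) and 3L at 12742220 to 12742466 (141 bp from ROW). On the other side of the boundary, the regions whose WOC peak met its partners by the fewest bases were on 3L at 2554164 to 2554948 (23 bp, with ROW and HP1c), 2L at 1310938 to 1311471 (28 bp, with ROW and HP1b) and 2L at 20166241 to 20167076 (94 bp, with HP1b). The next were 3R at 2917473 to 2918043 (124 bp, with ROW and HP1c) and 2L at 4067464 to 4068032 (126 bp, with HP1b). Of the 3332 autosomal regions in which WOC met another factor, 3 had a largest overlap under 100 bp and none under 10 bp. A different minimum overlap therefore moved few sites: at 0.5 of the shorter peak, all 231 stayed and 9 joined.

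H3K4me3 was present at 51 of the 231 WOC-only regions, 22.1% (95% Wilson interval 17.2 to 27.9), and the other 180 had no H3K4me3 peak called. Over all 5880 autosomal regions the share was 37.3%. WOC-only regions thus carried the promoter mark less often than ROW-only regions, of which 313 of 805 were marked (38.9%, 35.6 to 42.3; odds ratio 0.445, 95% interval 0.316 to 0.627, Fisher's exact test, two-sided, adjusted p = 1.65e-06). They carried it far less often than regions of ROW and WOC without HP1 proteins, of which 936 of 1338 were marked (69.96%, 67.4 to 72.4; odds ratio 0.122, 0.0873 to 0.170, Fisher's exact test, adjusted p = 2.07e-42). They carried it more often than HP1c-only regions, of which 32 of 786 were marked (4.07%, 2.90 to 5.69; odds ratio 6.68, 4.17 to 10.7, Fisher's exact test, adjusted p = 3.69e-15). WOC alone therefore stood between ROW alone and HP1c alone. These p-values were adjusted over 4 comparisons.

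The fourth comparison, with all other 5649 autosomal regions (37.9% marked), gave an odds ratio of 0.465 (0.339 to 0.637, Fisher's exact test, adjusted p = 8.88e-07), but it was lost when width was held alike. Among regions of 200 to 400 bp it was 0.979 (adjusted p = 1 by Fisher's exact test). That range also changes the mix of the other regions. Median widths were 518 bp for ROW with WOC, 314 bp for ROW-only and 298 bp for HP1c-only, and the part of this mix was not tested. With every region set to 250 bp about its centre, Fisher's exact test gave 0.755 (adjusted p = 0.111). The comparisons with the named combinations held there: within 200 to 400 bp the odds ratios were 0.454 against ROW-only, 0.253 against ROW with WOC and 5.18 against HP1c-only. At 250 bp, a width chosen after seeing the data, they were 0.424, 0.267 and 5.76.

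**Figure D2:**
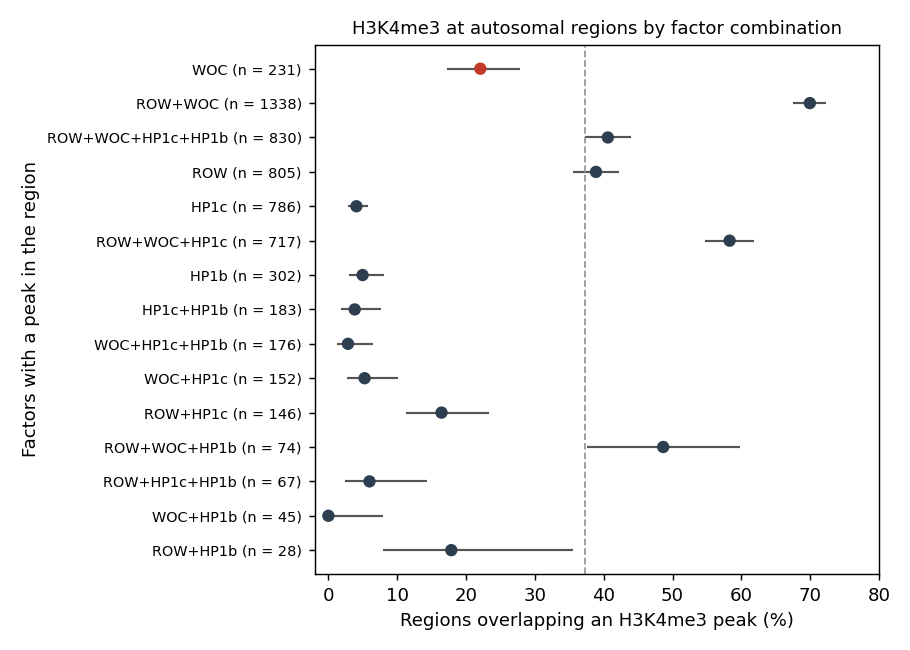
Share of autosomal regions that overlap an H3K4me3 peak (x axis, percent) for each combination of factors with a peak in the region (y axis, WOC-only first, in red); bars are 95% Wilson intervals and the dashed line is the 37.3% of all autosomal regions. WOC-only regions, at 22.1%, lie below ROW-only (38.9%) and ROW+WOC (69.96%) and above HP1c-only (4.07%).

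The other regions that hold WOC without ROW were nearly free of the mark. With an HP1 protein beside WOC, 13 of 373 were marked, 3.49% (2.05 to 5.87), and among the 45 with HP1b alone beside it there were none, which allows a share of up to 7.87% (Wilson). The same order was seen among narrow peaks. Over the 3 narrowest deciles of the autosomal WOC list, the WOC peak itself met H3K4me3 at 36 of 184 WOC-only sites (19.6%), at 221 of 686 sites with ROW (32.2%) and at 7 of 210 sites with an HP1 protein but no ROW (3.33%). This breakdown was chosen after seeing the data and was not tested.

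The marked share lay between 19.2% and 25.9% on the 4 arms. It was 20.4% on 2L (10 of 49), 25.9% on 2R (14 of 54), 19.2% on 3L (14 of 73) and 23.6% on 3R (13 of 55), with Wilson intervals that all overlapped. On each arm it lay below the ROW-only share (37.1% to 40.4%) and above the HP1c-only share (1.94% to 6.70%). It was 10% in the 2 Mb nearest the centromere (3 of 30) and 23.9% over the rest of the arms (48 of 201), with intervals of 3.46 to 25.6% and 18.5 to 30.2%. By width, the mark was at 24 of 142 WOC-only regions under 300 bp (16.9%, Wilson interval 11.6 to 23.9). It was at 16 of 67 from 300 to 400 bp (23.9%, 15.3 to 35.3) and 11 of 22 from 400 bp (50%, 30.7 to 69.3). The intervals of the narrowest and widest bins did not overlap. A wide region meets a mark more easily, and these bins were not tested against each other. Split at the median WOC-only width, the odds ratio of marked against unmarked regions was 1.27 (0.682 to 2.38). It is given as a description, because width is in part set by the rule. This odds ratio turned to 0.856 with H3K4me3 peaks at or above the median fold or -log10 q and to 0.809 without arm 3L.

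Where WOC-only regions did carry the mark, its median strength was close to that at ROW sites. In the authors' values, the strongest H3K4me3 peak met had a median fold enrichment over background of 4.28 (quartiles 3.18 and 5.04). Its range was 2.44 to 7.31. The median was 4.28 at ROW-only regions (quartiles 3.62 and 5.03) and 4.36 at ROW with WOC (3.72 and 4.98). The lower quartile was thus lower at WOC-only regions than at either, a difference that was not tested. The median was 3.19 at HP1c-only regions, and 3.85 over all 4488 H3K4me3 peaks of the 4 arms. At or above that overall median were 32 of 51 marked WOC-only regions (62.7%), where all marked autosomal regions gave 69.8%. The share did not pass the test against ROW-only (68.1%; odds ratio 0.791, 95% interval 0.427 to 1.46, Fisher's exact test, adjusted p = 0.520) or ROW with WOC (71.3%; 0.679, 0.378 to 1.22, adjusted p = 0.374). Against all other marked regions it was 62.7% and 70.0% (0.722, 0.406 to 1.28, Fisher's exact test, adjusted p = 0.374).

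Against HP1c-only regions (11 of 32, 34.4%) the odds ratio was 3.22 (1.28 to 8.10) and missed the threshold (Fisher's exact test, adjusted p = 0.0567). It passed in 5 of 12 alternatives, among them the -log10 q in place of fold enrichment (3.71, Fisher's exact test, adjusted p = 0.0276) and without arm 2R (6.42, adjusted p = 0.00366), so the call depends on the setting. The 51 marked WOC-only regions limit what these comparisons can resolve.

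The marked WOC-only sites were, with few exceptions, the sole factor site of their H3K4me3 peak. They met 53 H3K4me3 peaks, of which 2 also met a region of another combination. For ROW-only regions these counts were 22 of 313 peaks (7.03%), for HP1c-only regions 7 of 32 (21.9%) and for ROW with WOC 33 of 1104 (2.99%), against 3.77% for WOC-only regions, so that the trait was not particular to WOC-only sites. The 53 peaks had a median width of 704 bp, against 596 bp for the 2016 H3K4me3 peaks of the 4 arms without any factor, whose median fold enrichment was 3.26. This width was not particular to WOC-only sites either. The peaks met had a median width of 748 bp for ROW-only, 685 bp for ROW with WOC and 824 bp for HP1c-only regions.

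The strongest marks at WOC-only regions were on 3R and 3L. The region on 3R at 5168338 to 5168619 had a fold enrichment of 7.31 and a -log10 q of 133.7, lay wholly inside its H3K4me3 peak, and had a ROW peak 715 bp and an HP1c peak 858 bp away. The region on 3L at 12742220 to 12742466 followed (6.39, -log10 q 105.2), also wholly inside the mark, with a ROW peak at 141 bp. Its centre lay 1386.5 bp from the summit, where the fold enrichment is taken, the farthest of the 51 marked regions. On 3L at 6048040 to 6048290 (6.26, -log10 q 101.2) the overlap was 70 bp, and the nearest other factor was HP1c at 9913 bp. The next were 3R at 6232925 to 6233250 (5.93) and 2L at 7032501 to 7032783 (5.74), 6676 bp from HP1c and 4890 bp from ROW. The first pair thus stood beside ROW, and the other three stood several kilobases from every other factor.

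Marked WOC-only regions lay beside the summit of the mark, as did most other marked regions. Marked WOC-only regions had their centre a median of 267.5 bp from the summit of the H3K4me3 peak they met (quartiles 227.5 and 314.5 bp). The median was 283.5 bp for ROW-only and 330 bp for ROW with WOC. Between 200 and 600 bp from the summit lay 42 of 51 (82.4%), against 1734 of 2140 other marked regions (81.0%). The share was 73.2% for ROW-only and 87.9% for ROW with WOC. Nearer than 200 bp lay 8 of the 51 (15.7%), against 8.50% of all other marked regions. The overlap with the mark was short, with a median of 111 bp, or 30.9% of the region, against 227 bp (64.2%) for ROW-only. It was 238 bp (41.6%) for ROW with WOC and 241.5 bp (40.6%) for all other marked regions. For the 49 regions that met a single mark, it lay on the high-coordinate side at 25 and on the low-coordinate side at 24.

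**Figure D3:**
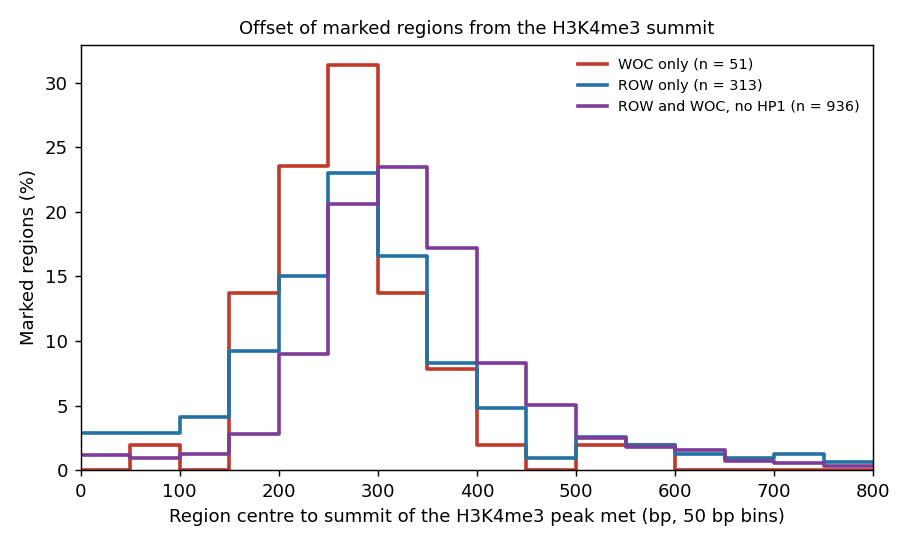
Distance from the centre of each marked region to the summit of the H3K4me3 peak it met (x axis, bp, bins of 50 bp) as a share of the marked regions of each class (y axis, percent), for WOC-only, ROW-only and ROW with WOC. WOC-only regions have a median of 267.5 bp, ROW with WOC one of 330 bp, and few regions of any of these classes lie on the summit.

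The centre of the region lay inside the H3K4me3 peak at 16 of 51 marked WOC-only regions, 31.4%, where all marked autosomal regions gave 36.3%. It did so at 188 of 313 marked ROW-only regions (60.1%; odds ratio 0.304, 0.161 to 0.573, adjusted p = 4.13e-04 by Fisher's exact test) and at 24 of 32 marked HP1c-only regions (75%; 0.152, 0.0563 to 0.412, adjusted p = 4.13e-04). This measure was chosen after seeing the data. The difference from ROW-only missed the threshold without arm 3L (0.407, adjusted p = 0.0761 by Fisher's exact test) and among regions of 200 to 400 bp (0.456, adjusted p = 0.0526). The difference from HP1c-only missed it without arm 3L (0.325, Fisher's exact test, adjusted p = 0.125). Against ROW with WOC (36.6%) the odds ratio was 0.790 (0.431 to 1.45) and did not pass (Fisher's exact test, adjusted p = 0.556).

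Few WOC-only regions bridged a pair of marks. Of the 51 marked ones, 2 met more than 1 H3K4me3 peak (3.92%, Wilson interval 1.08 to 13.2), against 3 of 313 ROW-only regions (0.958%) and 180 of 936 regions of ROW with WOC (19.2%). Over all other marked regions it was 369 of 2140 (17.2%). Regions of ROW with WOC had a median width of 518 bp, against 286 bp for WOC-only regions, and the part of width in this was not tested. Among regions that met 1 mark, another mark began within 500 bp on the far side at 4 of 49 WOC-only regions (8.16%), 22 of 310 ROW-only regions (7.10%) and 93 of 755 regions of ROW with WOC (12.3%). Over all other regions that met 1 mark it was 180 of 1767 (10.2%). The median gap to that far mark was 5083 bp for WOC-only, 3865.5 bp for ROW-only and 3841 bp for ROW with WOC. These counts were described without a test.

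The 180 unmarked WOC-only regions were mostly kilobases from H3K4me3, as were unmarked regions in general. Their median gap to the nearest H3K4me3 peak was 8633 bp (quartiles 3260 and 23866 bp), against 2359 bp for unmarked ROW-only regions, 1835 bp for unmarked ROW with WOC and 12160 bp for unmarked HP1c-only regions. For all other unmarked regions together it was 7799 bp (1842 and 23274 bp). These medians are given without a test. A mark began within 1000 bp of 23 of the 180 (12.8%, Wilson interval 8.67 to 18.4), where all unmarked autosomal regions gave 17.9%. The share was lower than for unmarked ROW-only regions (170 of 492, 34.6%; odds ratio 0.277, 0.172 to 0.446, Fisher's exact test, adjusted p = 1.81e-08). It was also lower than for unmarked regions of ROW with WOC (165 of 402, 41.0%; 0.210, 0.130 to 0.340, Fisher's exact test, adjusted p = 9.18e-12). With only factor peaks at or above the median width of each list both calls were lost (0.914 and 0.771), but that setting held 103 WOC-only regions, of which 13 were among the 231.

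Against unmarked HP1c-only regions the share of 12.8% compared with 8.36% (63 of 754), an odds ratio of 1.61 (0.967 to 2.67) that did not pass (Fisher's exact test, adjusted p = 0.0838). It passed in 5 of 14 alternatives, among them without arm 2L (1.85, Fisher's exact test, adjusted p = 0.0477), without arm 2R (1.94, adjusted p = 0.0384) and with regions of 250 bp (2.25, adjusted p = 9.20e-04). Against all other unmarked regions (18.2%) it was 0.658 (0.421 to 1.03, adjusted p = 0.0838 by Fisher's exact test), and 0.457 (adjusted p = 0.0114) without arm 3L. The direction turned with only factor peaks at or above the median width of each list (2.60, Fisher's exact test, adjusted p = 0.00372). No mark was called within 50000 bp of 21 of the 180, while 95 had one within 10000 bp (52.8%, against 55.7% of all other unmarked regions). Within 50000 bp the shares were 88.3% and 89.4%.

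**Figure D4:**
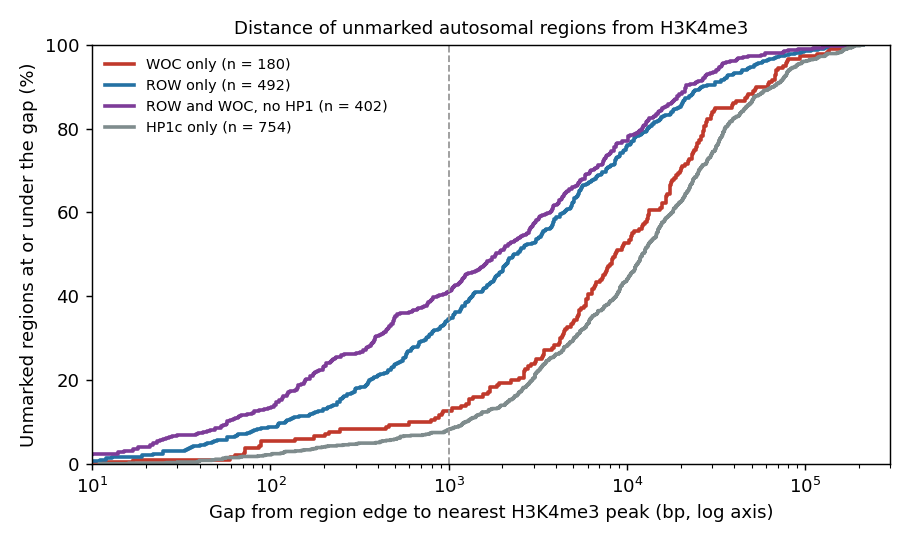
Cumulative share of unmarked autosomal regions (y axis, percent) by the gap to the nearest H3K4me3 peak (x axis, bp, log axis; dashed line at 1000 bp) for WOC-only, ROW-only, ROW with WOC, and HP1c-only regions. The WOC-only curve, with a median of 8633 bp, runs near that of HP1c-only (12160 bp) and to the right of ROW-only (2359 bp) and ROW with WOC (1835 bp).

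The neighbourhood of WOC-only regions held all the partner proteins at some kilobases. The median gap was 6255 bp to the nearest ROW peak (quartiles 2494 and 17576 bp), 9310 bp to HP1c, 16827 bp to HP1b and 6028 bp to the next WOC peak. The autosomal lists differ in length, with 4022 ROW, 3600 WOC, 3082 HP1c and 1720 HP1b peaks, and the part of list length in these gaps was not tested. Another factor was called within 1000 bp of 36 of the 231 (15.6%), within 5000 bp of 132 (57.1%) and within 10000 bp of 182 (78.8%). Since the rule requires a gap, these values describe the regions and test nothing.

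**Figure D5:**
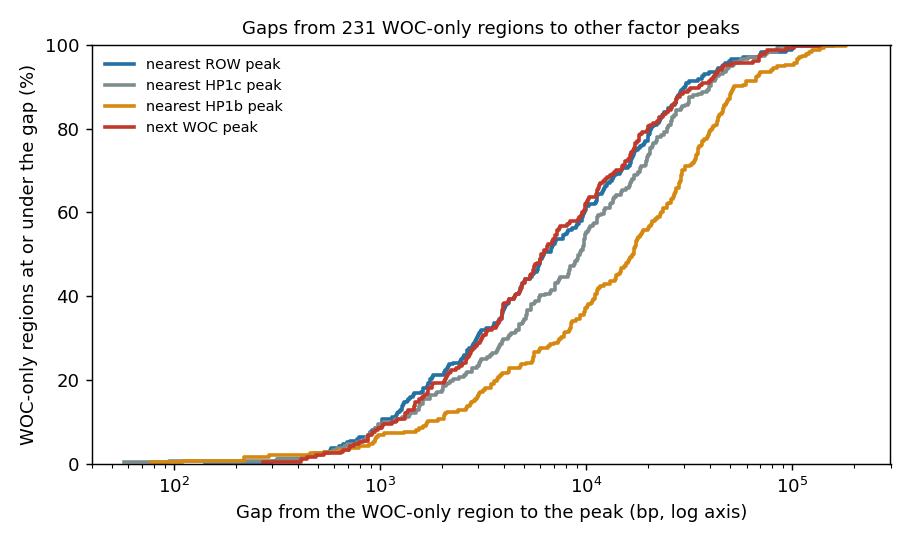
Cumulative share of the 231 WOC-only regions (y axis, percent) by the gap to the nearest ROW, HP1c, HP1b or next WOC peak (x axis, bp, log axis). The ROW and WOC curves run together, with medians of 6255 and 6028 bp, and the HP1b curve lies farthest to the right, with a median of 16827 bp.

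A few WOC-only regions stood apart from all other factors. The most remote was on 3R at 22202724 to 22202973, 85282 bp from the nearest HP1c peak, 158657 bp from ROW and 75221 bp from H3K4me3. On 3L at 6322504 to 6322788 the nearest other factor was HP1c at 84266 bp, and the nearest mark was 135517 bp away. The region on 3R at 8047383 to 8047815 was 73919 bp from HP1c, yet an H3K4me3 peak began 1914 bp from it. Those on 2L at 12241933 to 12242308 (69017 bp from ROW) and on 2R at 3028226 to 3028685 (54939 bp from HP1c) completed the first 5. None of these 5 carried the mark, and neither did the other 5 of the 10 regions more than 30000 bp from another factor. The Wilson interval of 0 of 10 reaches 27.8%, which holds the 22.1% of all WOC-only regions, so a lower share at remote sites was not detectable at this number.

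Marked and unmarked WOC-only regions differed in which factor was nearest. The nearest other factor was ROW at 37 of 51 marked regions (72.5%, Wilson interval 59.1 to 82.9) and at 84 of 180 unmarked ones (46.7%, 39.5 to 54.0), with 52.4% over all 231. The odds ratio was 3.02 (1.53 to 5.97), a comparison chosen after seeing the data. The gaps come from the lists that chose the regions, so this odds ratio is given as a description. The comparison was not made for other combinations, and the difference is not shown to be particular to WOC-only sites. The odds ratio ran from 2.69 to 3.77 in the 9 alternatives tried, which reuse the same lists and are not independent of it. HP1c was nearest at 8 marked regions (15.7%) and at 63 unmarked ones (35.0%), and HP1b at 6 (11.8%) and 33 (18.3%). The median gap to ROW was 4890 bp for marked and 6938 bp for unmarked regions, and that to HP1b was 28209 bp and 14670.5 bp.

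Marked and unmarked regions were also set side by side for other factors within 1000 bp and for width. Gaps and width come from the lists that chose the regions, so these odds ratios are given as descriptions. A ROW peak lay within 1000 bp of 4 of 51 marked (7.84%) and 16 of 180 unmarked regions (8.89%). All autosomal regions without ROW gave 8.43%, and the odds ratio was 0.872 (0.278 to 2.73). An HP1c or HP1b peak lay within 1000 bp of 3 marked (5.88%) and 24 unmarked regions (13.3%). All autosomal regions without an HP1 protein gave 7.20%, and the odds ratio was 0.406 (0.117 to 1.41). At or above the median WOC-only width were 28 marked (54.9%) and 88 unmarked regions (48.9%), where all autosomal regions gave 85.4%. The odds ratio was 1.27 (0.682 to 2.38). The intervals of these odds ratios are wide and leave room for differences of either sign. A split at the median does not show the ends of the width range. There the marked share was 16.9% under 300 bp and 50% from 400 bp.

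No arm held a share of the WOC-only regions that passed a test against the other WOC sites. Arm 3L held 73 of the 231 (31.6%, against 25.5% of the other 3332 autosomal regions with WOC), 3R 55 (23.8% against 27.5%), 2R 54 (23.4% against 22.3%) and 2L 49 (21.2% against 24.7%). Over all autosomal regions with WOC the shares were 25.9% on 3L, 27.3% on 3R, 22.4% on 2R and 24.4% on 2L. The odds ratios of 1.35 on 3L (1.01 to 1.80, adjusted p = 0.219 by Fisher's exact test), 0.824 on 3R (0.603 to 1.13, adjusted p = 0.446), 1.06 on 2R (0.775 to 1.46, adjusted p = 0.843) and 0.822 on 2L (0.594 to 1.14, adjusted p = 0.446) did not pass. Within 2 Mb of the outermost peak at the centromere end of an arm lay 30 WOC-only regions (12.99%) and 457 other WOC regions (13.7%), with 13.7% over both (0.939, 0.632 to 1.40, Fisher's exact test, adjusted p = 0.843 over the 5 tests).

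Successive WOC-only regions were a median of 226571 bp apart, and 80 of 99 windows of 1 Mb held at least 1. The fullest windows held 7 each. On 2R, the window from 13000001 to 14000000 had 7 WOC-only regions among 33 with WOC, and 5 of the 7 were marked. On 2L, the window from 21000001 to 22000000 had 7 among 85, with 1 marked, and on 3L that from 12000001 to 13000000 had 7 among 47, with 2 marked. The closest pair stood 414 bp apart on 3R (17497377 to 17497675 and 17498090 to 17498347), both unmarked. The next pair was on 3L, 1455 bp apart (21764038 to 21764379 and 21765835 to 21766246), also unmarked, and the third on 2R, 3262 bp apart (13673431 to 13673701 and 13676964 to 13677213), both marked.

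Along the chromosome, the regions on either side of a WOC-only region held every kind of factor site. Of 462 neighbouring sides, 92 were ROW with WOC (19.9%, against 22.8% of all autosomal regions), 82 had all 4 factors (17.7% against 14.1%), 67 were HP1c-only (14.5% against 13.4%) and 51 ROW-only (11.0% against 13.7%). Another WOC-only region stood on 26 sides (5.63%, against 3.93% of all autosomal regions). Neighbours with ROW made up 63.9% of sides and 68.1% of all autosomal regions, and those with HP1c or HP1b 63.4% and 59.6%. These shares were not tested.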

How the data were processed

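Chromatin immunoprecipitation and sequencing of fly heads gave 16 libraries, grouped by antibody from the labels. Per the submitters' processing notes, Bowtie2, SAMtools, MACS2 and deepTools were used with the build dm3; versions and settings are not stated there. The authors deposited 5 peak lists, 1 an antibody, in which replicates were already combined; how is not stated in the labels. The 4 factor lists hold positions and no value for each peak. The deposited H3K4me3 list also gives the fold enrichment (a ratio) at the summit, the -log10 of the q-value, and a score that is 10 times the -log10 q as a whole number; its peak names point to calling against IgG. The lowest -log10 q in it was 3.02. A shallow library gives fewer peaks, and depth is unknown.

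Merging, overlaps and gaps were computed in Python 3.11.15 with NumPy 2.4.6, pandas 2.3.3 and SciPy 1.17.1, and figures with matplotlib 3.10.9; the merging was tested on simulated lists. Marked regions overlap an H3K4me3 peak by at least 1 bp. Shares were compared by the two-sided Fisher's exact test with Benjamini-Hochberg adjustment within each family, with a threshold of 0.05, Wilson intervals for shares and Woolf intervals for odds ratios, at 95%. The regions and comparisons were chosen with earlier results of these lists known. Named regions are the 5 most strongly marked, widest, farthest from and closest to another factor, the 5 just outside the rule, and the 3 closest pairs. Coordinates are 1-based. The gene table at hand belongs to another release and was not used.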

Additional observations from a re-analysis of the deposited data

How the results depend on the processing

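No paired analysis was possible because the authors' lists hold the replicates already combined, under no number that pairs them; for want of lists by replicate, none was left out either. Of 274 alternatives, 232 kept direction and side of the threshold and 21 changed direction; the causes were not tested. All values here are odds ratios, WOC-only first.

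For the marked share, the 16 alternatives each against ROW-only (0.241 to 0.511), ROW with WOC (0.109 to 0.267) and HP1c-only (2.36 to 30.5) kept the call. Against all other regions it was 1.02 with peaks at or above the median width of each list, 0.979 for regions of 200 to 400 bp and 0.755 at 250 bp. The median-width setting holds mostly other sites (13 of its 103 regions are among the 231). There, near-mark shares were 0.914 (ROW-only), 0.771 (ROW with WOC), 6.79 (HP1c-only) and 2.60 (all others, Fisher's exact test, adjusted p = 0.00372), strong-mark shares 1.44, 1.18 and 1.29 (ROW-only, ROW with WOC, all others), and arm 2R 0.992.

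Near-mark shares gained a call against HP1c-only over all contigs (1.64), without arm 2L (1.85), without arm 2R (1.94) and at 250 bp (2.25). Against all others they did so with peaks up to 1000 bp apart merged (0.558), over all contigs (0.598), without arm 3L (0.457) and at 250 bp (0.401).

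Strong-mark shares against HP1c-only gained a call with peaks up to 200 bp apart merged (3.43), for 200 to 400 bp (4.29), without arm 2R (6.42), without the proximal 2 Mb (4.79) and by -log10 q (3.71). Uncalled ones turned for 200 to 400 bp (all others, 1.01) and without arm 2R (ROW-only 1.14, all others 1.04).

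The proximal share turned for 200 to 400 bp (1.13). Centre-in-mark shares lost the call against ROW-only for 200 to 400 bp (0.456) and without arm 3L (0.407), and against HP1c-only without arm 3L (0.325); uncalled ones turned against ROW with WOC for 200 to 400 bp (1.18) and without arm 3L (1.004), and against all others without arm 3L (1.10). Between marked and unmarked members, the odds ratios are descriptions. That for ROW within 1000 bp turned with H3K4me3 peaks at or above the median -log10 q or fold (1.11 in both). It also turned without arm 2R (1.09), and at 500 bp (1.80) and 5000 bp (1.49). That for width turned in both median settings (0.856) and without arm 3L (0.809).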
